A study of Mus musculus with 4 samples.

Results

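The 10 genes described here encode transcription factors and cofactors that build the blood lineages: Gata1, Gata2, Tal1, Lmo2, Runx1, Myb, Klf1, Gfi1b, Gfi1 and Spi1. They were chosen by name, and every Smad1 peak of the 5 deposited lists that lay within 20 kb of a gene body in the GENCODE M21 annotation of mm10 was taken. This gave 25 of the 76539 listed peaks, which merged into 12 regions at 7 of the genes. Of the peaks, 4 were common DMSO sites, 5 came from the DMSO MACS list, 8 from the DMSO QESEQ list, 2 from the second MACS list and 6 from the IWR-1 QESEQ list.

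The study sequenced Smad1-bound chromatin (ChIP-seq) and input chromatin of embryoid bodies (EBs), the aggregates in which embryonic stem (ES) cells differentiate. The EBs were made from the GFP-Bry mouse ES cell line, in which GFP is read out from the Brachyury gene of early mesoderm and for which the labels give the strain C57BL/6. They were dissociated on day 3, reaggregated, exposed for 24 h to the vehicle DMSO or to IWR-1 at 10 µM, which blocks Wnt signalling, and collected on day 4. Each treatment had 1 ChIP library and 1 input library, so differences between the treatments have no replicate check and no p-value is given. The chromatin came from whole EBs of a single cell line, and peak lists hold no expression values with which the labelled cell type could be checked. A list says whether a peak passed the caller's threshold, and an uncalled region is not shown to lack Smad1. No read counts were used, so the depth behind a peak is unknown.

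The DMSO lists are named here from their coordinates, because the sample labels attach them to other libraries. All 10466 common sites are intervals of 1 QESEQ list of 26070 peaks, and all overlap 1 MACS list of 15927 peaks. The QESEQ list of 16261 peaks is labelled as the IWR-1 ChIP, and 0 of the common sites are intervals of it. The second MACS list, of 7815 peaks, is attached to the DMSO ChIP in the labels, though its own name carries IWR-1. It was put with IWR-1 here by elimination. A common site is thus a DMSO interval that both callers listed, and the score given below is the authors' MACS score, which ranks peaks within its list and has no meaning across lists.

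Smad1 is the DNA-binding effector of bone morphogenetic protein (BMP) signalling, and in the early mesoderm BMP and Wnt signals act together on the way to blood. Gata2, Tal1 and Lmo2 act early, in the precursors of blood and endothelium, Runx1 drives the emergence of blood stem cells from endothelium, and Myb maintains their definitive progeny. Gata1, Klf1 and Gfi1b act in red cells, Gata1 and Gfi1b in platelets too, while Spi1 and Gfi1 act in the myeloid and lymphoid lineages. GATA factors bind the core GATA, and Smads bind GC-rich elements and the shorter CAGAC box.

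The sequences of 9 regions are shown because the results turn on what they share: a long unbroken run of adenines or thymines, with or without short Smad and GATA elements. Not shown are the DMSO region of Gfi1b intron 1, with a longest run of 21, and the IWR-1 regions beyond Gfi1b and Myb, with 5 and 22. All are the plus strand of mm10 read 5′ to 3′, from the NCBI GRCm38.p6 assembly. Capitals mark the longest run of A or T, the Smad elements (the GC-rich GGCGCC with its relative GGAGCC, the palindrome GTCTAGAC and the box CAGACA) and the GATA elements (AGATAA and, as its relatives, AGATAG with TGATAA besides TGATAG), each on either strand. A GATA element of the minus strand thus reads TTATCT in the case of AGATAA. Regions longer than 300 bases are shown in part, and an element outside the stretch shown is given by its position in the text. The common sites of Runx1 intron 2, of Spi1, of Myb intron 8 and upstream of Myb come before the QESEQ region farther upstream of Myb, the QESEQ regions of Gfi1b intron 4 and upstream of Klf1, the MACS peak beyond Gata1 and the IWR-1 region at the start of Gfi1, which is shown from its annotated start outward.
Runx1 intron 2, chr16:92739241-92739540: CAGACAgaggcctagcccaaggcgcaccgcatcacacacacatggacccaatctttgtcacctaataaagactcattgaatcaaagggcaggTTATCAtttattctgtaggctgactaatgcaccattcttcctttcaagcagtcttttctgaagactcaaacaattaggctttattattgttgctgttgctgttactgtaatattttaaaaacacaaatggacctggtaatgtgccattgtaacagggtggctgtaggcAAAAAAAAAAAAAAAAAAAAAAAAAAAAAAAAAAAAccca
Spi1 upstream of the main start, chr2:91088712-91089011: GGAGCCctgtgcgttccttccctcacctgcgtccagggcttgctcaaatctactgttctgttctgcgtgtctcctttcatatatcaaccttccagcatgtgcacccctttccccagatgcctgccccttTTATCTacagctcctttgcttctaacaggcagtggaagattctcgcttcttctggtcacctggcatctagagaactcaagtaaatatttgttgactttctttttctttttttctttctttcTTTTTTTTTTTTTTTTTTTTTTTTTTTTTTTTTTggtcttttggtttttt
Myb intron 8, chr10:21146714-21146978: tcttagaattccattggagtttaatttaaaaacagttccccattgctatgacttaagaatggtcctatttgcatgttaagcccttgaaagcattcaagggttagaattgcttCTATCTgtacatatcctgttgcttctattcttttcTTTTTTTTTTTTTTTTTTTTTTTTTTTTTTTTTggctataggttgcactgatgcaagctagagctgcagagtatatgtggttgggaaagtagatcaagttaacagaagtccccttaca
Myb 7.77 kb upstream, chr10:21168608-21168907: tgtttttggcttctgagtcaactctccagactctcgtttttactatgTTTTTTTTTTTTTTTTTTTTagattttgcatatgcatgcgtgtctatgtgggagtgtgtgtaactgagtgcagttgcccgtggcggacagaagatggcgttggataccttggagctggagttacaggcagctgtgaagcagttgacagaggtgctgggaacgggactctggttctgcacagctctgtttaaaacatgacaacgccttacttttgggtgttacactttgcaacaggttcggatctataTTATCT
Myb 11.8 kb upstream, chr10:21172659-21172931: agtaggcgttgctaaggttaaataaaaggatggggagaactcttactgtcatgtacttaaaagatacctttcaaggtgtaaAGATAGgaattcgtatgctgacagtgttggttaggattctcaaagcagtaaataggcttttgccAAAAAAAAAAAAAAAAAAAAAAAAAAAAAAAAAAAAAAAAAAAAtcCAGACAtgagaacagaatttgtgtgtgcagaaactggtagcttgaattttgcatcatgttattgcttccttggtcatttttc
Gfi1b intron 4, chr2:28613198-28613497: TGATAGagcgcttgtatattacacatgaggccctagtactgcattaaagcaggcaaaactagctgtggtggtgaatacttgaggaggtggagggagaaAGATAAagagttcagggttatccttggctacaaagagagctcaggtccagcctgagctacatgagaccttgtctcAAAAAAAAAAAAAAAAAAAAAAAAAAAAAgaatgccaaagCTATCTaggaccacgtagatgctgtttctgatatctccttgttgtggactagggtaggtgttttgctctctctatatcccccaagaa
Klf1 upstream, chr8:84894973-84895272: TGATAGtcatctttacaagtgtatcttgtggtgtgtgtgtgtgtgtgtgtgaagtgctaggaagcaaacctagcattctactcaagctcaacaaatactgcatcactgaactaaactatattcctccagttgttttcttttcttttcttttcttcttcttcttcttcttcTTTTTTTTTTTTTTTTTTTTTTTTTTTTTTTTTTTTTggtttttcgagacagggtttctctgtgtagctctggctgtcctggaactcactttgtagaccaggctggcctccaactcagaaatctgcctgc
Gata1 downstream, chrX:7949597-7949812: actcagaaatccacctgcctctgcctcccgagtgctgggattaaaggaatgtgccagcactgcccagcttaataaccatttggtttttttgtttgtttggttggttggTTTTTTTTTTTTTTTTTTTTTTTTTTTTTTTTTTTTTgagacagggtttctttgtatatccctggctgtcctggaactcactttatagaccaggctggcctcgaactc
Gfi1 start, chr5:107726037-107726212: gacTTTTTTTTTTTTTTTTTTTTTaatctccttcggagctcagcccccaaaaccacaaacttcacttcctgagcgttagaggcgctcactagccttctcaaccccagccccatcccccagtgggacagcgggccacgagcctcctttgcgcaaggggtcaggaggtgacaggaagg

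DMSO peaks were found at 6 of the 10 genes: Runx1, Myb, Spi1, Gfi1b, Klf1 and Gata1. Common sites lay at 3 of them, Runx1, Spi1 and Myb, with 2 at Myb. Gfi1 had calls in the lists assigned to IWR-1 only. Gata2, Tal1 and Lmo2, the early factors of the blood and endothelial precursor, had no peak of any of the 5 lists within 20 kb.

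These counts were near the shares over all genes. Common sites lay within 20 kb of 30.0% of the 10 genes (95% exact binomial interval 6.67 to 65.2%), and of 35.1% of the 21938 protein-coding genes. DMSO peaks of either caller lay near 6 of the 10 (26.2 to 87.8%) against 64.3% of all genes, peaks of either IWR-1 list near 5 (18.7 to 81.3%) against 52.0%, and peaks of any list near 7 (34.8 to 93.3%) against 71.7%. The intervals cover counting error only. The windows were of like length, with a median of 57.1 kb for the 10 genes and 57.4 kb for all genes. Among the 15302 genes with windows of at most 76.0 kb, the second longest of the 10, common sites lay near 28.4%. That limit leaves out Runx1, whose window of 264.7 kb holds a common site and which counts toward the 30.0%. Per 100 kb of window the 10 genes had 0.506 common sites and all genes 0.575, while DMSO QESEQ peaks came to 1.01 and 1.49 per 100 kb.

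**Figure D1:**
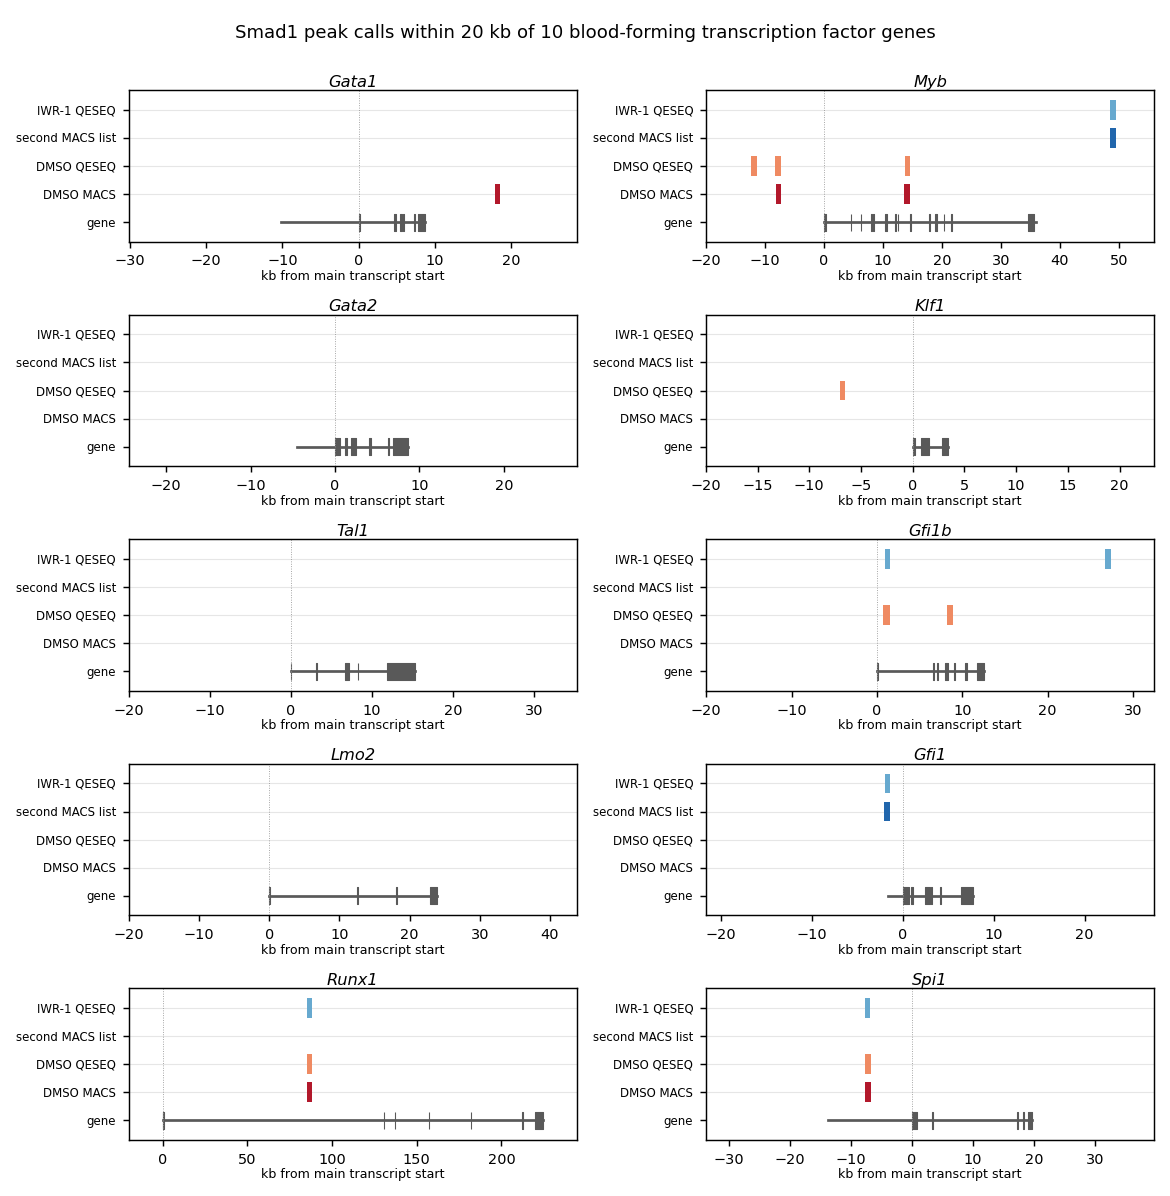
Position of every Smad1 peak within 20 kb of the 10 genes, in kb from the start of the main transcript along the direction of transcription, with 1 row per list, exons as grey boxes and the gene body as a grey line. Gata2, Tal1 and Lmo2 have no mark in any row, Gfi1 has marks in the IWR-1 rows only, and Myb has 3 DMSO regions; marks narrower than 1.2% of the axis are widened to be visible.

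**Figure D2:**
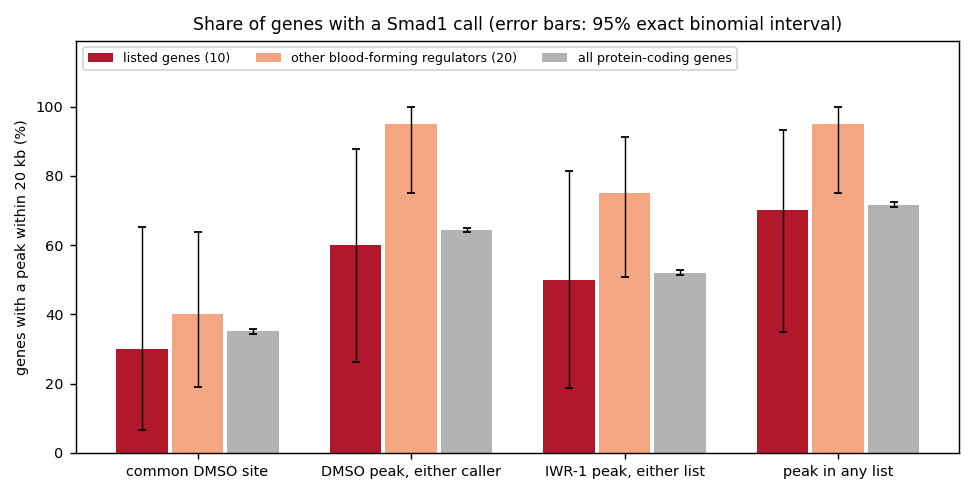
Share of genes with a peak within 20 kb, for the 10 listed genes, 20 other blood-forming regulators and all 21938 protein-coding genes, with bars from 0 and 95% exact binomial intervals as error bars. The intervals of the listed genes contain the grey bars in all 4 classes. The other regulators stand at 19 of 20 both for DMSO peaks of either caller and for peaks of any list. Their windows are longer, with a median of 96.2 kb against 57.4 kb for all genes.

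Runx1, the factor of definitive blood emergence, had 1 common site in a gene of 225 kb. The site, chr16:92739209-92739776, lies in intron 2 of the main transcript, 86.7 kb downstream of its distal start and 42.2 kb upstream of the proximal promoter, where the shorter coding transcripts begin. DMSO MACS gave it a score of 83.66, above 78.8% of that list. The IWR-1 QESEQ list also holds it, at chr16:92739144-92739753, which shares 545 bp or 96.0% of the DMSO interval, and the second MACS list does not. Its 36 adenines lie 27 bp from the centre of the interval. A CAGACA stands 254 bp from the run, a TGATAA 162 bp and an AGATAG at chr16:92739749-92739754, outside the printed stretch, 212 bp from it. The TCF/LEF element CTTTGAT, which Wnt effectors bind, occurs once, on the minus strand, 174 bp from the run.

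Spi1 encodes PU.1, the regulator of myeloid and B cell fate, and carried the common site with the highest score of the 4. The site, chr2:91088673-91089105, lies 7.21 kb before the main start of Spi1 and inside intron 1 of a longer coding model, 6.5 kb past the start of that model. Its DMSO MACS score was 105.82, above 90.6% of the list. The IWR-1 QESEQ interval, chr2:91088550-91089150, covers 100.0% of the 433 bp, and the second MACS list holds no peak there. The site has a run of 34 T, with the GATA element AGATAA 115 bp and the Smad element GGAGCC 244 bp from it.

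Myb, which sustains definitive progenitors, had the most DMSO regions, 3. None of them had a call in either IWR-1 list, and only 32.2% of all DMSO regions had one. The common site chr10:21146714-21146978 lies in intron 8, 14.1 kb from the main start, with a DMSO MACS score of 59.9 (above 35.6%). It overlaps intron 2 of the antisense gene Gm26577 and the start of a retained-intron model of Myb. It holds a run of 33 T, an AGATAG 29 bp from the run, the RUNX element TGTGGT and no Smad element. The other common site, chr10:21168503-21169010, lies 7.77 kb upstream with a score of 63.86 (above 46.6%). It holds the most kinds of element: a CAGACA at chr10:21168514-21168519, outside the printed stretch, an AGATAA, the E-box CAGCTG, which Tal1 and its partners can bind, and the AP-1 element TGACTCA. Its run of 20 T is the shortest among the DMSO regions. The QESEQ region chr10:21172659-21172931, 11.8 kb upstream, was not listed by MACS and has the longest run, 44 A, with a CAGACA 2 bp from its end and an AGATAG 58 bp away. A further region, chr10:21111822-21112117, lies 12.8 kb past the gene's end and was called in the IWR-1 QESEQ list and the second MACS list (score 55.36, above 26.2%) but in neither DMSO list.

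Gfi1b, a repressor of red cell and platelet development, had 2 DMSO regions, both from QESEQ alone. The region chr2:28613171-28613582 lies in intron 4, 8.57 kb from the start, and holds 3 GATA elements, more than any other region, with an AGATAG 11 bp, an AGATAA 69 bp and a TGATAG 167 bp from its run of 29 A. It had no IWR-1 call. The region chr2:28620468-28621200 lies in intron 1, 1.11 kb past the start, and was the DMSO region nearest to the start of a main transcript. The IWR-1 QESEQ list holds it over 406 bp, 55.4% of the DMSO interval. It has a run of 21 A, TGTGGT at 2 places and neither a Smad nor a GATA element. A further region, chr2:28594701-28595099, 14.4 kb past the gene's end, was called in the IWR-1 QESEQ list alone. It had the shortest longest run of the 12, 5 A, and none of the Smad or GATA elements.

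Klf1, the activator of the adult β-globin gene, had 1 region, chr8:84894932-84895338, called by DMSO QESEQ alone, 6.79 kb upstream. The start of the neighbouring gene Gcdh, at 1218 bp, is nearer to it. The region holds a run of 37 T, a TGATAG and a TGTGGT, and 68.8% of its bases are masked as repeats.

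Gata1, the factor that erythroid cells depend on, had 1 peak, chrX:7949597-7949812, called by DMSO MACS alone with a score of 55.27, above 20.5% of the list. It lies 9.45 kb past the gene's end and 1815 bp from the start of Hdac6. All of its bases are masked as repeats, which holds for 2.57% of DMSO MACS peaks, and it has a run of 37 T and no Smad or GATA element. No peak of either caller lay within the Gata1 gene or upstream of it within 20 kb.

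Gfi1, a repressor that protects stem cells and guides granulocytes, was the only gene of the 10 with a peak over the annotated start of a coding transcript. The IWR-1 QESEQ interval chr5:107725888-107726212 is centred 14 bp before the outermost coding start of Gfi1 and 1.71 kb before the main start, and overlaps exon 2 of the noncoding gene A430072P03Rik. The second MACS list extends it to base 107726263 with a score of 53.09 (above 16.5% of that list). A run of 21 T lies at its centre, its GC content is 56.3%, and it has no Smad or GATA element. The nearest DMSO peak lay 66.4 kb upstream.

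Gata2, Tal1 and Lmo2 had their nearest DMSO peaks outside the 20 kb window. For Gata2 it lay 51.9 kb downstream at chr6:88258940-88259397 (MACS score 57.37), for Tal1 36.4 kb upstream at chr4:115019624-115020076 (61.19), and for Lmo2 41.3 kb upstream at chr2:103916418-103916694 (QESEQ). The nearest common site was 104 kb from Gata2, 54.0 kb from Tal1 and 48.4 kb from Lmo2. Long runs do exist in these windows: 3 runs of at least 20 A or T near Gata2, 1 near Tal1 and 1 near Lmo2, none of which lies in a peak of any list. Over the genome, 28.6% of such runs lie in a DMSO peak and 15.9% in a peak of an IWR-1 list, so most runs are uncalled at any gene.

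**Figure D3:**
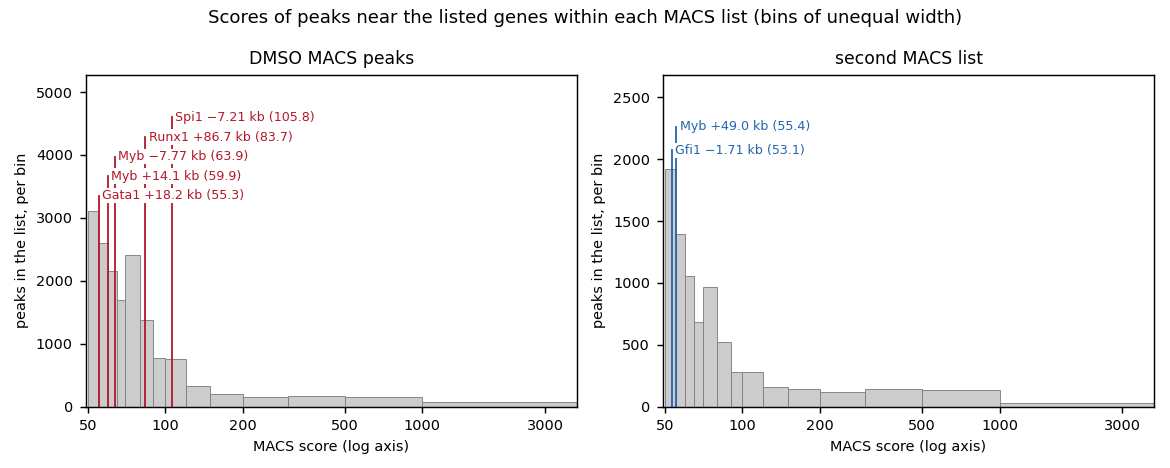
Distribution of the MACS scores in the DMSO MACS list and in the second MACS list, as peaks per bin over a log score axis, with the peaks near the listed genes marked by lines and their score. The 5 DMSO peaks range from 55.27 to 105.82, with those at Spi1 and Runx1 above the median of 65.32 and those at Gata1 and Myb below it. The 2 of the second list are 53.09 and 55.36, below that list's median of 62.73. Line heights only separate the labels.

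Scores of the DMSO MACS peaks near these genes lay on both sides of the median of their list. The 5 DMSO MACS peaks ranged from 55.27 to 105.82 in a list that runs from 50.0 to 3226.07 with a median of 65.32. The peaks at Spi1 and Runx1 stood above that median and those at Gata1 and Myb below it. Of the 9 DMSO regions, 4 or 44.4% (13.7 to 78.8%) held a common site, against 34.0% of all 30798 DMSO regions. By caller, 4 were from QESEQ alone and 1 from MACS alone.

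IWR-1 calls overlapped DMSO regions at Runx1, Spi1 and Gfi1b and at none of the 3 DMSO regions of Myb. Of the 4 common sites, 2 or 50.0% (6.76 to 93.2%) had an IWR-1 QESEQ call, those of Runx1 and Spi1, against 37.0% of all common sites. The second MACS list held 0 of the 4, which allows up to 60.2%, against 25.8% of all common sites. Of the 9 DMSO regions, 3 or 33.3% (7.49 to 70.1%) had an IWR-1 QESEQ call, against 24.8% of all DMSO regions. The 2 common sites with the call were also the 2 with the higher DMSO scores. Conversely, 3 of the 6 IWR-1 QESEQ peaks near the genes lay outside both DMSO lists (50.0%, 11.8 to 88.2%), against 52.9% of that list. Both peaks of the second MACS list, at Gfi1 and beyond Myb, lay outside the DMSO lists, against 29.0% of that list. The interval of each of these shares contains the share over its whole list.

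Long adenine runs were the feature shared by all DMSO regions. Runs of at least 7 A or T are in 90.3% of all common sites, and each of the 9 DMSO regions held a run of at least 20, from 20 to 44 with a median of 34, and the middle of the run lay a median of 31 bp from the centre of the interval. Runs of that length occur in 74.2% of all common sites, in 59.4% of the DMSO QESEQ list and in 74.2% of the DMSO MACS list, so the regions share it with most peaks of their lists. In windows of the same width 2 kb to either side, 0 of 18 held such a run at these genes and 1.39% did over all common sites. The sites of Runx1, Spi1 and Myb intron 8 equalled or exceeded 87.1%, 83.8% and 82.3% of common sites in the length of their run. The site upstream of Myb equalled or exceeded 27.7%. Repeat-masked bases made up 100.0% of the region at Gata1, 68.8% of that at Klf1 and 23.1 to 43.9% of the other 7. Among the regions called with IWR-1 alone, the runs were 22 beyond Myb, 21 at Gfi1 and 5 beyond Gfi1b.

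Not every run was called. The 10 windows, 790.6 kb in all, hold 21 runs of at least 20 A or T, or 2.66 per 100 kb against 2.69 in the genome. Of these, 9 or 42.9% (21.8 to 66.0%) lie in a DMSO peak, against 28.6% of the 71219 such runs in the genome, and 5 or 23.8% lie in a peak of an IWR-1 list, against 15.9%. Myb had 5 runs with 3 in DMSO peaks, Runx1 had 3 with 1, and Gfi1b had 2 with both.

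**Figure D4:**
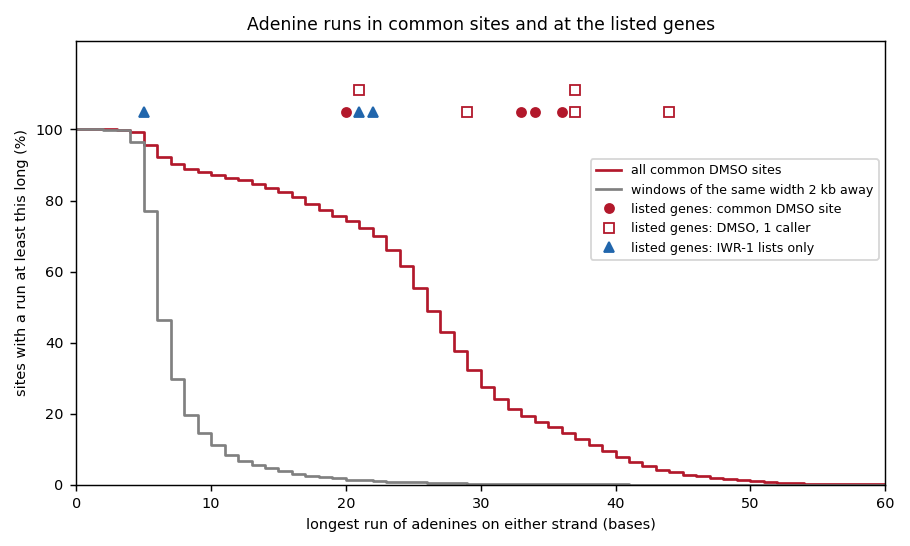
Share of all 10466 common DMSO sites, and of windows of the same width 2 kb away, that hold a run of adenines on either strand at least as long as the x axis gives, in bases. Symbols above the curves mark the longest run in each of the 12 regions at the listed genes, which is 20 to 44 in the 9 DMSO regions and 5, 21 and 22 in the 3 regions called in the IWR-1 lists only.

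Smad and GATA elements lay at varied distances from the run, from the CAGACA 2 bp away at the region 11.8 kb upstream of Myb to the CAGACA 254 bp away at Runx1. Smad elements occurred in 3 of the 4 common sites (19.4 to 99.4%), against 44.2% of all common sites and 47.0% of windows 2 kb away. GATA elements occurred in 4 of 4 (39.8 to 100.0%), against 51.4% and 58.4%. Both kinds together were found at Runx1, Spi1 and upstream of Myb, 3 of 4 (19.4 to 99.4%). The shares were 22.7% of all common sites and 27.1% of windows 2 kb away. In the central 200 bp, however, 0 of the 4 had a Smad element, against 22.1% of all common sites, and 2 of the 4, Spi1 and Myb intron 8, had a GATA element, against 27.4%. Over the 9 DMSO regions, 4 had a Smad element and 7 a GATA element, while 10 of the 18 windows 2 kb away had each. The shares over the DMSO QESEQ list were 47.4% for the Smad elements and 54.4% for the GATA elements. As classes, Smad and GATA elements were no more frequent in the 10466 sites than in windows 2 kb away. A match thus describes the letters of a region and not a bound site. Of the Smad elements, GGCGCC was in 2.66% of all common sites, the related GGAGCC in 17.4%, the palindrome GTCTAGAC in 0.411% and CAGACA in 32.0%. Of the GATA elements, AGATAA was in 21.1%, the variant AGATAG in 18.0%, the variant TGATAA in 16.9% and TGATAG in 13.7%. The TCF/LEF element CTTTGAT was in 7.47%, the RUNX element TGTGGT in 29.2%, the E-box CAGCTG in 15.6% and the AP-1 element TGACTCA in 6.68%, and no 2 of these overlap in the regions printed.

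**Figure D5:**
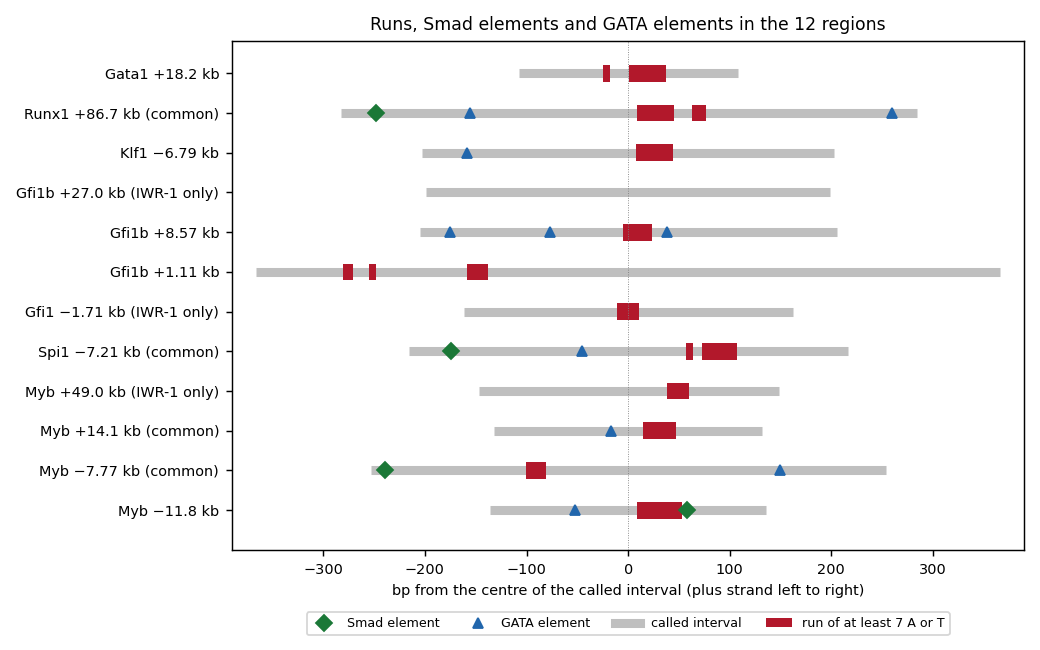
Position of runs of at least 7 A or T (red, drawn to length), Smad elements (green diamonds) and GATA elements (blue triangles) in the 12 regions, in bp from the centre of the called interval on the plus strand. The middle of the longest run lies within 31 bp of the centre in 6 of the 9 DMSO regions, and the Smad elements of the 3 common sites that have one lie outside the central 200 bp.

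RefSeq windows from 250 bases before to 50 after a start were at hand for 8 of the genes, 12 windows in all, and 1 of the 12, that of Gfi1, met a peak, in the IWR-1 lists only (0.211 to 38.5%). Of all 32851 RefSeq windows, 2.27% met a peak of any list and 1.87% a DMSO peak, so few promoter windows of any gene met a peak. The proximal and distal windows of Runx1, both windows of Gata2 and of Tal1, and those of Gata1, Klf1, Gfi1b and Myb met none. Smad elements were in 9 of the 12 windows, against 51.7% of all RefSeq windows, GATA elements in 3 against 29.8%, and runs of at least 7 in 3 against 11.7%.

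Other blood-forming regulators gave a fixed list of 20 genes for comparison. Common sites lay near 8 of the 20 (19.1 to 63.9%), 11 sites in all, against 35.1% of all protein-coding genes. DMSO peaks of either caller lay near 19, all but Cebpa, against 64.3%. The 20 genes had longer windows, with a median of 96.2 kb, and per 100 kb they had 0.417 common sites against the 0.506 of the 10 genes. DMSO QESEQ peaks came to 1.44 per 100 kb, against 1.01 for the 10 genes and 1.49 for all genes. The genes with a common site were Lyl1, a relative of Tal1, the E protein Tcf12, the Runx partner Cbfb, Runx2, Runx3, Gata3, Ikzf1 and Zbtb7a. The site in intron 4 of Runx3 had a DMSO MACS score of 322.65, above 97.7% of the list and above every DMSO MACS peak at the 10 genes, with a longest run of 4. Of the 11 sites, 3 had an IWR-1 QESEQ call, against 37.0% of all common sites, and 4 a call in the second MACS list, against 25.8%. A Smad element was in 7, against 44.2%, a GATA element in 6, against 51.4%, and a run of at least 20 in 7, against 74.2%.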

How the data were processed

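Smad1 ChIP-seq and input libraries of DMSO- and IWR-1-treated day 4 EBs, 1 each, are represented by 5 peak lists. Per the study's methods and the labels, the authors aligned the reads to mm10 with Bowtie2, discarded PCR duplicates and ran 2 peak callers, MACS and QESEQ, on each ChIP. The deposited MACS lists hold positions and a MACS score per peak, and the other lists hold positions only. QESEQ positions were read as counted from 0, like those of MACS, and are given here counted from 1.

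The 10 genes, the 20 other regulators and the element lists were chosen with earlier results of these data known. Peaks within 20 kb of a GENCODE M21 gene body were taken, and merged where they overlapped by 1 bp or more. A region's coordinates are those of the DMSO QESEQ interval where there is one. The main transcript is the coding transcript with the best principal annotation, the first-numbered where several tie. All 10 genes are named, other regulators where they have a common site (Cebpa, with no DMSO peak, was named after its values were seen), and neighbouring genes where a peak overlaps them or lies nearer to their start. Elements, runs and repeat masking were read on both strands from NCBI's GRCm38.p6, the assembly behind mm10, and promoter windows from RefSeq. Shares carry 95% Clopper-Pearson intervals, which cover counting error only. No test between treatments was made. Python 3.11.15 with numpy 2.4.6, scipy 1.17.1 and matplotlib 3.10.9 was used, and the overlap and element steps were tested on simulated data.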

Additional observations from a re-analysis of the deposited data

How the results depend on the processing

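No paired analysis was possible because each treatment had 1 library and no result comes from a test. Widening the window to 50 kb gave 8 common sites at 6 genes, adding Lmo2, Klf1 and Gfi1b. Wider windows take in more sites at any gene, and the share of all genes at 50 kb was not computed. There were 24 DMSO regions, of which 8 had an IWR-1 QESEQ call, against 24.8% of all DMSO regions. Regions in the IWR-1 lists only came to 7, and narrowing the window to 10 kb left 1 of them. With a DMSO MACS score of at least 75, 2 common sites were left, those of Runx1 and Spi1, and both had a GATA element and a run of at least 7. Reading the IWR-1 call from the second MACS list, or requiring both lists, gave 0.0% of the common sites. In the central 200 bp, 0 common sites had a Smad element and 2 a GATA element, and over the whole site 2 had AGATAA. Leaving out the DMSO QESEQ list, an alternative chosen after seeing the data like the leaving out of each other list, left 5 DMSO regions. The other alternatives left these counts within 1.5 times their value. Precision is limited by 12 regions, the unknown read depth behind each peak and 1 library per treatment.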
